A study of Mus musculus with 2 samples.

Results

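The genes described here are the TRAIL, Fas and TNF death ligands and their receptors. They are Tnfsf10, which encodes TRAIL, and its receptor Tnfrsf10b; Fasl and its receptor Fas; and Tnf with its receptors Tnfrsf1a and Tnfrsf1b. The members were taken by gene symbol, 7 of the 27998 genes in the count matrices, and each had UMIs in both libraries. A UMI, or unique molecular identifier, stands for 1 captured transcript. Together the 7 genes held 9840 UMIs in the control library, or 227 CPM (UMIs for each 1000000 UMIs of the class or library), and 11720 UMIs, or 243 CPM, in the second library.

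B16F10 melanoma cells, a mouse line, were grown under the skin of C57BL/6 mice, and live CD45+ cells were sorted from the tumors on day 14. Control mice were Usp18f/f. The second group was Usp18f/f LysM-Cre, so mice of both groups carry the floxed Usp18 allele and those of the second also carry Cre expressed from the Lyz2 gene, which is active in macrophages, monocytes and neutrophils. Usp18 is an interferon-induced protease that takes ISG15 off proteins and restrains the type I interferon receptor. Each group is 1 library from 4 pooled tumors, so no difference below has a replicate check, no test between groups is possible, and every interval covers counting error only.

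Death ligands of the TNF superfamily act on receptors of the matching family. TRAIL and Fas ligand bind TNFRSF10B and FAS, whose death domains recruit FADD and caspase 8 and can start apoptosis. TNF binds TNFRSF1A, which also carries a death domain but mostly drives NF-kB survival and inflammatory genes, and TNFRSF1B, which has no death domain and is known from activated and regulatory T cells and myeloid cells. T cells and NK cells use Fas ligand and TRAIL to kill target cells, macrophages are the main source of TNF, and Tnfsf10 is a known interferon-stimulated gene.

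The libraries held 7754 and 6063 barcodes with 43412346 and 48167632 UMIs, and 6684 and 5466 cells were kept. Barcodes found in both libraries numbered 8. Usp18 went against the label in its level. In mononuclear phagocytes, the macrophages and monocytes together, it measured 19.3 CPM among control cells and 93.1 CPM in the second library, 4.82-fold higher (95% counting interval 4.23 to 5.50). The Cre-bearing gene Lyz2 did follow the label, with 9460 CPM and 17.1 CPM. The second library is therefore called the library labelled knockout, and each direction below is read against that label. Where a pair of values stands without its libraries, the first is the control value and the second comes from the library labelled knockout. The pools also mix the sexes unequally. Leaving out melanoma cells, 1477 control cells held Xist and no Y-linked UMI, called Xist cells here, and 2581 held Y-linked UMIs and no Xist, called Y cells. The library labelled knockout had 3477 and 563 of them, and results that this touches are also given for Xist cells and Y cells apart.

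Cell classes were assigned from marker transcripts, none of them a member. They held 1686 and 2576 mononuclear phagocytes, 1157 and 667 T cells, 200 and 146 NK cells, 1403 and 431 B cells, 123 and 126 migratory dendritic cells, and 152 and 344 melanoma cells. Macrophage and monocyte are ends of a range of marker scores rather than separate types. The macrophage end held 682 and 885 cells, the monocyte end 763 and 1255, and 241 and 436 cells near the dividing line were kept apart as intermediate. A macrophage showed a median of 100% of the macrophage markers and 25% (control) or 12.5% of the monocyte markers, and a monocyte 75% or 87.5% of the monocyte markers and 12.5% of the macrophage markers. Median shares of T cell, neutrophil and melanoma markers in these cells were 0. Neutrophils numbered 470 and 25, too few in the library labelled knockout for a comparison. The melanoma cells came through a CD45 sort with little Ptprc, the gene for CD45, at 11.2 and 8.62 CPM, against 1621 and 1241 CPM in T cells. Their depth differed between the libraries, so receptor levels in melanoma are given for the 137 and 159 cells with at least 10000 UMIs, called deep melanoma cells.

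**Figure D1:**
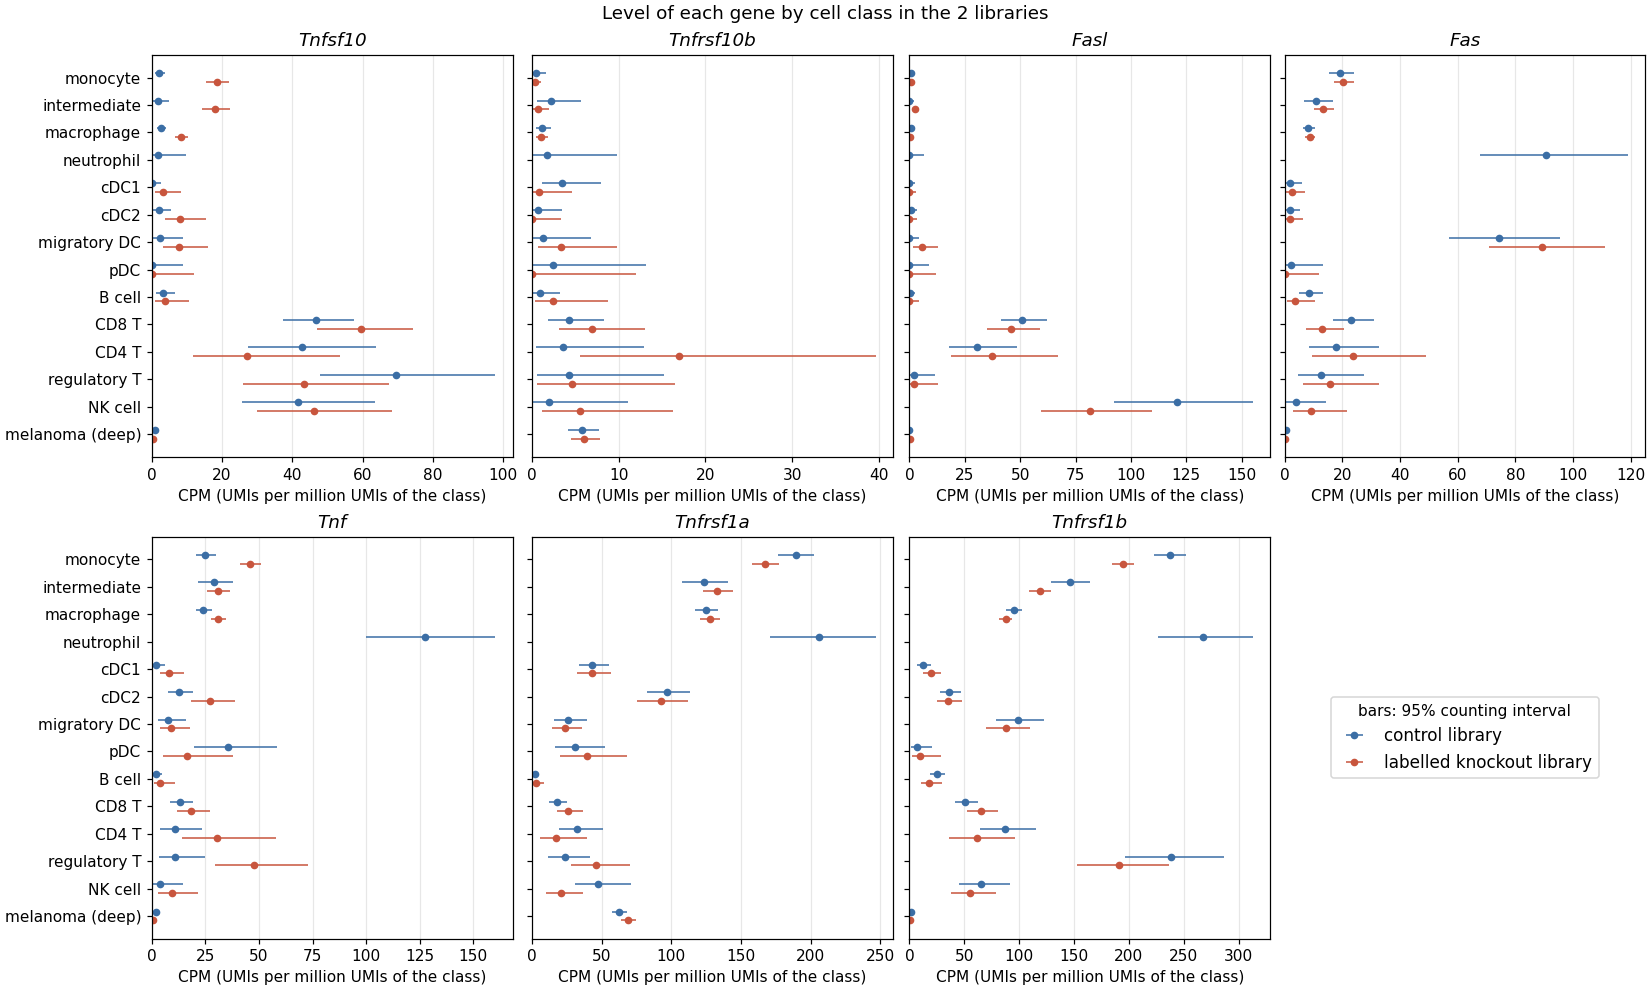
Level of each gene (horizontal axis, CPM) by cell class (vertical axis) in the control library (blue) and the library labelled knockout (red), with bars for the exact 95% counting interval; neutrophils of the library labelled knockout (25 cells) are left out. Tnfsf10 and Fasl are highest in T and NK cells, Fas in migratory dendritic cells and control neutrophils, Tnfrsf1a and Tnfrsf1b in myeloid cells, and Tnfrsf1b also in regulatory T cells.

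Tnfsf10 (ENSMUSG00000039304, chromosome 3, 27317028 to 27342427, plus strand, GRCm38) was a gene of T and NK cells in the control library and of T cells, NK cells and monocytes in the library labelled knockout. Mononuclear phagocytes held 31 and 297 Tnfsf10 UMIs, or 2.29 CPM (1.56 to 3.26) and 13.6 CPM (12.1 to 15.3). That is a 5.94-fold higher level (4.09 to 8.90), and a log2 ratio of 1.35 on the scale of CPM + 5 used for all log2 ratios here. The share of phagocytes with a Tnfsf10 UMI was 1.54% and 6.95%, at median depths of 6729.5 and 6179.5 UMIs. Phagocytes held 8.93% and 48.0% of all Tnfsf10 UMIs of kept cells, T cells 55.3% and 21.6%, and cells that met no class 23.6% and 22.1%. These shares also carry the different numbers of cells captured.

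Along the monocyte to macrophage range the pooled level was higher in the library labelled knockout at each step. Monocytes had 2.01 CPM (9 UMIs) and 18.5 CPM (133 UMIs), a ratio of 9.24 (4.72 to 20.7). Intermediate cells had 1.64 CPM (3 UMIs) and 17.9 CPM (80 UMIs), a ratio of 10.9 (3.61 to 54.1). Macrophages had 2.64 CPM (19 UMIs) and 8.26 CPM (84 UMIs), a ratio of 3.13 (1.88 to 5.45). The monocyte and intermediate levels in the library labelled knockout lay above the macrophage level without overlap of the intervals, whereas the 3 control levels overlapped. Among Y cells, however, monocytes had 6 UMIs and 0 UMIs, a log2 ratio of -0.64.

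T and NK cells carried the highest Tnfsf10 levels. T cells had 49.3 CPM (42.6 to 56.8) and 48.5 CPM (40.6 to 57.4), a ratio of 0.983 (0.783 to 1.23). CD8 T cells had 46.7 and 59.5 CPM, NK cells 41.5 and 46.3 CPM, CD4 T cells 42.8 and 27.2 CPM, and regulatory T cells 69.7 and 43.2 CPM. Counting intervals of these 4 classes overlapped between classes and between libraries. B cells stayed at 3.16 and 3.65 CPM and deep melanoma cells at 1.02 and 0.222 CPM (8 and 2 UMIs). Plasmacytoid dendritic cells had 0 UMIs in both libraries, which allows up to 7.09 and 9.76 CPM, so their level was not resolved at this depth.

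To set shares of cells beside each other at 1 depth, each cell was thinned to 1000 UMIs. T cells then held a Tnfsf10 UMI in 5.08% and 5.03% of cells, phagocytes in 0.303% and 1.34%, and B cells, the comparison that should lack most of it, in 0.295% and 0.480% (unthinned 0.499% and 0.696%, at median depths of 1500 and 1766 UMIs). The control phagocytes therefore stood at the B cell level, and their 31 UMIs cannot be told from background by this measure. Those of the library labelled knockout stood above it, although the exact interval of its B cell share (0.0581% to 1.72%) is wide.

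T cell transcripts also differed in the phagocyte gate. The summed level of the 8 T cell markers there was 18.7 CPM with all 8 seen in the control library, and 58.7 CPM with 7 seen and Trat1 at 0 in the library labelled knockout. The 8 NK cell markers summed to 3.33 and 10.1 CPM, with all 8 seen in both. Tnfsf10-positive phagocytes of the library labelled knockout had 219 CPM of the T cell markers, against 41.9 CPM in the negative ones. In phagocytes with no UMI of either marker list, 1531 and 2258 cells, Tnfsf10 measured 2.41 and 12.8 CPM, a ratio of 5.33 (3.61 to 8.14), so the difference was nearly as large there. Fasl, which T cells also carry, was counted beside Tnfsf10. T cells had 1.22 and 1.34 Tnfsf10 UMIs per Fasl UMI. Monocytes had 3 and 26.6, from only 3 and 5 Fasl UMIs, and all phagocytes 4.43 and 14.9, from 7 and 20. The part of T cell RNA in the phagocyte values was not tested.

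Tnfsf10 in phagocytes was concentrated in 1 cluster of cells. When all cells were clustered without the member genes, 1 cluster was led by Rsad2, Ifit2, Ifit1, Ifit3, Ifit1bl1, Isg15, Cxcl10 and Cmpk2, which are known interferon-stimulated genes. It held 28 gated phagocytes of the control library and 451 of the library labelled knockout, so it is mostly 1 library and may reflect that library rather than a cell type. Those 451 cells had 218 Tnfsf10 UMIs, 73.4% of the Tnfsf10 UMIs of the phagocytes of that library, at 62.3 CPM (54.3 to 71.1). This level was close to that of CD8 T cells of the same library. Of the 451 cells 76 held a T or NK marker UMI, against 318 of all 2576 phagocytes of that library. Tnfrsf4, with 92.1% of its phagocyte UMIs there in such marker-holding cells, was at 38.3 CPM in the cluster and 6.45 CPM outside it. Fasl was at 2.29 CPM (8 UMIs) and 0.656 CPM (12 UMIs). The part of T cell RNA in the cluster level was not tested. The 28 control cells had 5 UMIs, 25.9 CPM (8.42 to 60.5). The remaining phagocytes had 1.95 CPM (26 UMIs) and 4.32 CPM (79 UMIs), a ratio of 2.21 (1.40 to 3.59), and their log2 ratio was 0.42. Without that cluster the log2 ratio was 0.60 in monocytes in place of 1.75, and 0.35 in macrophages in place of 0.80. Clusters were defined from the same cells, so these values are a description and no test.

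The same pattern was visible cell by cell. Among control phagocytes, the 26 Tnfsf10-positive cells had 238 CPM of Isg15 against 68.8 CPM in the 1660 negative cells, and Ifit1 was at 165 against 25.2 CPM. For the library labelled knockout, the 179 positive cells had 2694 CPM of Isg15 against 471 CPM, and 1028 CPM of Ifit1 against 133 CPM. Usp18 itself was at 354 CPM in the positive cells and 65.6 CPM in the negative ones. Positive cells were also deeper, with median UMIs of 9056 against 6045 there and 11489 against 6676.5 in the control library. The part of depth in these contrasts was not tested.

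**Figure D2:**
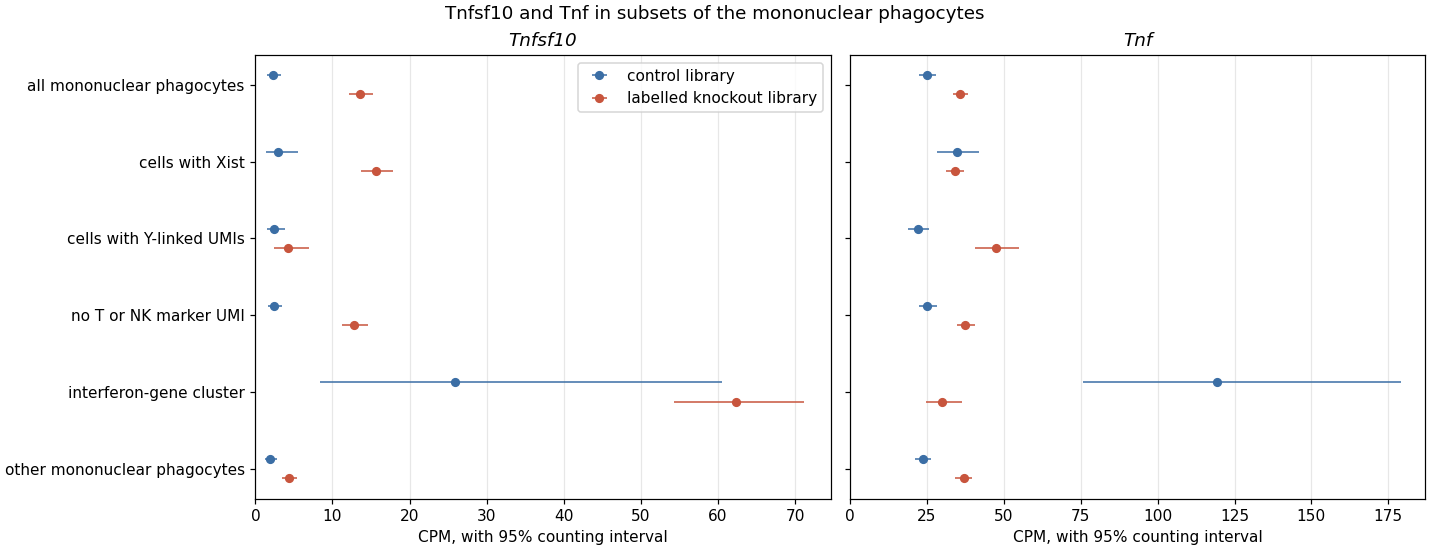
Tnfsf10 (left) and Tnf (right) in subsets of the mononuclear phagocytes, as CPM (horizontal axis) in the control library (blue) and the library labelled knockout (red), with bars for the 95% counting interval. Tnfsf10 is at 13.6 CPM in all phagocytes and at 62.3 CPM in the interferon-gene cluster of the library labelled knockout; for Tnf the libraries lie together in cells with Xist and apart in cells with Y-linked UMIs.

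Sex-marked cells gave unequal Tnfsf10 values. Among Xist cells, phagocytes had 2.94 CPM (9 UMIs in 407 cells) and 15.7 CPM (225 UMIs in 1731 cells), a ratio of 5.33 (2.76 to 11.8). Among Y cells they had 2.44 CPM (18 UMIs in 819 cells) and 4.28 CPM (16 UMIs in 334 cells), a ratio of 1.75 (0.837 to 3.65). The counting intervals of the ratios overlap, and the difference between them was not tested. Of the 451 cells of the interferon-gene cluster in the library labelled knockout, 354 were Xist cells and 11 Y cells. Sex, mouse and group cannot be told apart where 1 kind of cell comes mostly from 1 pool.

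The sequence next to the Tnfsf10 start is shown because the gene was high in the same cells as interferon-stimulated genes. Of the members, 6 have a RefSeq promoter entry in GRCm38.p6. The 250 bases before each RefSeq start were searched on both strands for AANNGAAAC, a short form of the element bound by interferon regulatory factors. This form was chosen after the Tnfsf10 sequence had been read, and then shortened by 1 base, as were the forms GAAANNGAA and GGNNTTTCC below, which makes matches more common. Tnfsf10 has 2 matches, Tnfrsf1b has 1, the promoters of Fas, Fasl, Tnf and Tnfrsf1a have 0, and 4.99% of 27025 promoters hold at least 1. GAAANNGAA, another form of the element, is in 7.16% of promoters and among the 6 only in that of Tnfrsf1b, at positions -9 to -1, where it overlaps the first match. GGNNTTTCC, a form of the NF-kB element, is in 4.84% of promoters and in 0 of the 6, and TTCNNNGAA, a form of the STAT element, is in 7.18% and in those of Fas, Tnfrsf1a and Tnfrsf1b. The matches of Tnfsf10 are printed on the plus strand with the match in capitals. Positions count from the RefSeq start at 27317077, and the GENCODE gene begins further upstream, at 27317028.
Site 1, chr3:27317013-27317041, positions -54 to -46, match on the minus strand: gacttgcttaGTTTCACTTttggtctcaa
Site 2, chr3:27317037-27317065, positions -30 to -22, match on the plus strand: ctcaacagtaAAAAGAAACtgcatgggca
A match of letters is a description of the sequence and not evidence of binding.

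Tnfrsf10b (ENSMUSG00000022074, chromosome 14, 69767472 to 69784411, plus strand), the only TRAIL death receptor of the mouse, had few UMIs in every class, and melanoma cells held more of them than any other class. Deep melanoma cells had 5.73 CPM (4.18 to 7.67, 45 UMIs) and 6.00 CPM (4.51 to 7.83, 54 UMIs), a ratio of 1.05 (0.692 to 1.59). A Tnfrsf10b UMI was found in 25.5% and 28.3% of these cells, whose median depths were 52503 and 55878 UMIs. Melanoma cells held 43.8% and 50.9% of all Tnfrsf10b UMIs, although they were 2.27% and 6.29% of kept cells; a deep melanoma cell holds many more UMIs than a lymphocyte. T cells had 5.39 CPM (21 UMIs) and 6.87 CPM (19 UMIs), which the melanoma interval overlaps. Phagocytes were lower, with 1.04 CPM (14 UMIs) and 0.688 CPM (15 UMIs), and their log2 ratio was -0.09. The receptor for TRAIL was thus at about the same level in the melanoma cells of both libraries, while the ligand differed in the phagocytes.

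Fasl (ENSMUSG00000000817, chromosome 1, 161780689 to 161788495, minus strand) was a gene of NK cells, CD8 T cells and CD4 T cells. NK cells had the highest level, 121 CPM (92.3 to 155, 61 UMIs) and 81.4 CPM (59.2 to 109, 44 UMIs). CD8 T cells had 50.9 and 45.8 CPM, and CD4 T cells 30.3 and 37.4 CPM. Regulatory T cells had 2.11 and 2.27 CPM, 1 UMI in each library, a level apart from that of CD4 T cells by their intervals. The order NK, CD8, CD4 was the same in both libraries. NK cells lay above CD8 T cells within each library, by a narrow margin in the library labelled knockout, and the CD8 and CD4 intervals overlap. Migratory dendritic cells had 0 and 5 UMIs. B cells had 1 and 0 UMIs and deep melanoma cells 0 and 1.

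In none of the classes with at least 20 Fasl UMIs did the exact interval of the pooled ratio leave out 1, in NK cells only just. The NK cell ratio was 0.675 (0.447 to 1.01), a log2 ratio of -0.54 whose approximate interval, -1.07 to -0.0087, left out 0. The ratio was 0.431 (0.235 to 0.811; 19 and 30 UMIs) in Xist cells and 1.69 (0.605 to 4.17; 20 and 7 UMIs) in Y cells. After thinning, 13.3% and 7.69% of NK cells held a Fasl UMI, against 24.5% and 24.0% before. T cells had 40.3 and 36.2 CPM, a ratio of 0.897 (0.691 to 1.16). The phagocyte gate had 7 and 20 Fasl UMIs, 0.518 and 0.917 CPM. Among its cells without T or NK marker UMIs 1 and 4 UMIs were left, and the 16 Fasl-positive phagocytes of the library labelled knockout had 708 CPM of T cell markers.

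Fas (ENSMUSG00000024778, chromosome 19, 34290666 to 34327772, plus strand), the receptor for Fas ligand, had its highest levels in migratory dendritic cells and neutrophils and was scarcely seen in melanoma cells. Migratory dendritic cells, matured cells that carry antigen to lymph nodes, had 74.5 CPM (57.0 to 95.7, 61 UMIs) and 89.2 CPM (70.8 to 111, 80 UMIs). A Fas UMI was seen in 35.8% and 38.1% of them. The next classes by level, CD4 T cells at 17.8 and 23.8 CPM and monocytes at 19.4 and 20.4 CPM, lay below without overlap of intervals. T cell markers summed to 75.7 and 212 CPM in the migratory gate, with Trat1 at 0 and 7 of 8 seen in both libraries. In migratory cells free of T and NK marker UMIs, 98 and 86 cells, Fas was at 75.0 and 97.0 CPM. Conventional dendritic cells of either type, which they can arise from, had between 1.81 and 2.45 CPM, from 2 or 3 UMIs each. Control neutrophils had 90.8 CPM (67.8 to 119, 52 UMIs), a value from shallow cells with a median of 1128 UMIs.

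For Fas, the exact interval of the pooled ratio included 1 in each class with at least 20 UMIs, in CD8 T cells only just. Phagocytes had 12.3 CPM (166 UMIs) and 13.4 CPM (293 UMIs), a ratio of 1.09 (0.901 to 1.33). Monocytes had a ratio of 1.05 (0.799 to 1.38), with 0.558 (0.382 to 0.834) in Xist cells and 1.70 (0.864 to 3.20) in Y cells. Macrophages had 8.20 and 8.65 CPM, lower than monocytes in both libraries. CD8 T cells had 23.1 CPM (44 UMIs) and 12.98 CPM (17 UMIs), a ratio of 0.562 (0.301 to 1.00), and their log2 interval on the CPM + 5 scale, -1.25 to -0.04, left out 0. Deep melanoma cells had 3 and 2 Fas UMIs among 7852859 and 8995476 UMIs, or 0.382 and 0.222 CPM.

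**Figure D3:**
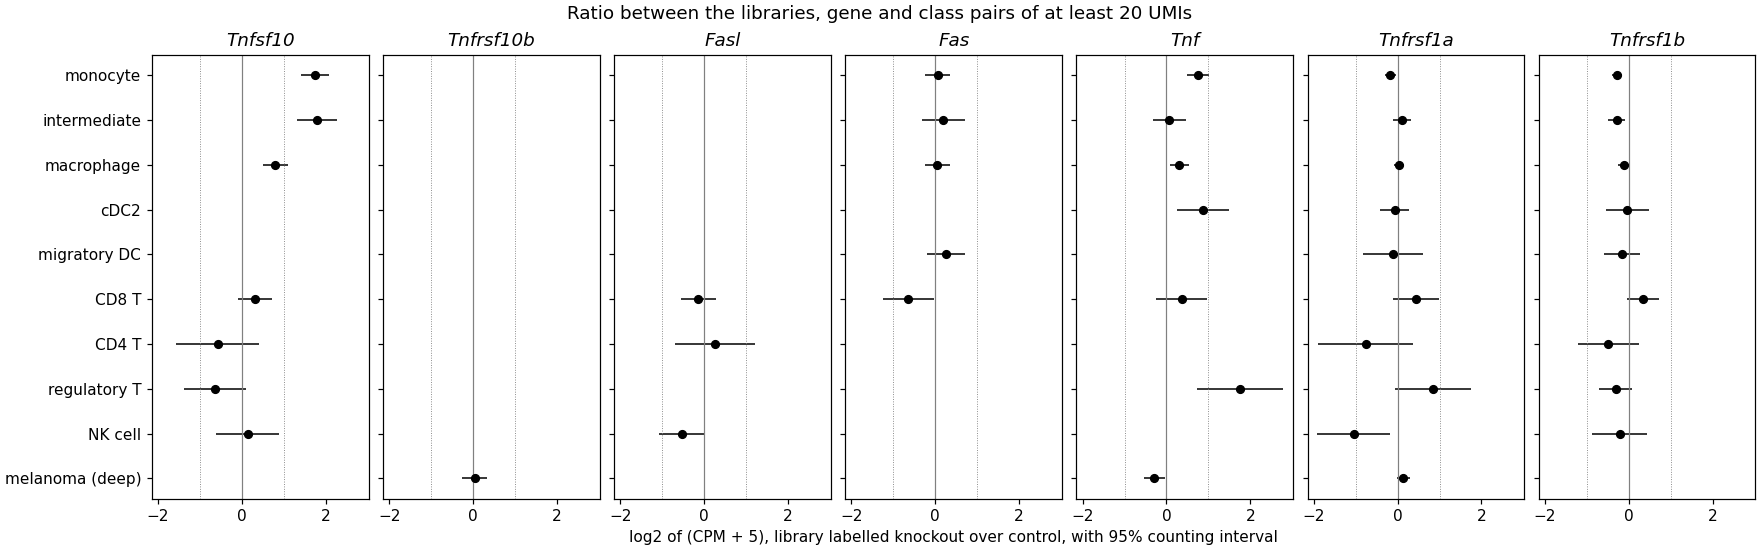
Log2 ratio of (CPM + 5) between the library labelled knockout and the control library (horizontal axis) for each gene (panel) and class (vertical axis), with bars for the 95% counting interval, for pairs of at least 20 UMIs; dotted lines mark 2-fold. Tnfsf10 is past 2-fold in monocytes (1.75) and intermediate cells (1.79) but not in macrophages (0.80). Past 2-fold are also Tnf in regulatory T cells (1.76, or 0.93 without the top cell of each library) and Tnfrsf1a, to the lower side, in NK cells (-1.05).

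Tnf (ENSMUSG00000024401, chromosome 17, 35199381 to 35202007, minus strand) was carried mostly by myeloid cells. Phagocytes held 54.6% and 73.9% of all Tnf UMIs. Their level was 25.01 CPM (22.4 to 27.8, 338 UMIs) and 35.8 CPM (33.3 to 38.4, 780 UMIs), a ratio of 1.43 (1.26 to 1.63) and a log2 ratio of 0.44. Monocytes had 24.97 and 45.9 CPM, a ratio of 1.84 (1.48 to 2.30). Macrophages had 24.0 and 30.9 CPM, a ratio of 1.28 (1.06 to 1.56), and intermediate cells 29.0 and 30.7 CPM. Clusters, with all their kept cells, differed in this. In 1 monocyte cluster the ratio was 5.14 (3.60 to 7.48), from 40 and 150 UMIs. Other monocyte clusters had 1.31 (1.004 to 1.72) and 0.953 (0.714 to 1.27), and the interferon-gene cluster 0.281 (0.179 to 0.460). Macrophage clusters had 1.49 (1.16 to 1.93), 2.30 (1.55 to 3.49) and 0.528 (2 and 2 UMIs). Type 2 conventional dendritic cells had 12.5 CPM (20 UMIs) and 27.1 CPM (30 UMIs), a ratio of 2.16 (1.19 to 4.02). In those free of T and NK marker UMIs, 8 and 9 Tnf UMIs were left, a ratio of 2.15 (0.737 to 6.41). Of all type 2 cells, Xist cells had 0 and 26 UMIs. Y cells had 17 and 4 UMIs, a ratio of 3.23 (0.790 to 9.90). The highest value was that of control neutrophils, 128 CPM (99.9 to 160, 73 UMIs).

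The Tnf values of Xist cells and Y cells differed. Phagocytes among Xist cells had 34.6 CPM (106 UMIs) and 33.9 CPM (488 UMIs), a ratio of 0.982 (0.794 to 1.22). Those among Y cells had 22.1 CPM (163 UMIs) and 47.4 CPM (177 UMIs), a ratio of 2.14 (1.72 to 2.67). Macrophage ratios were 1.18 (0.855 to 1.66) for Xist cells and 1.15 (0.846 to 1.57) for Y cells, intervals that include 1. The pooled macrophage log2 ratio of 0.31 was 0.12 with a mitochondrial limit of 5%. Monocyte ratios pointed in opposite directions, 0.713 (0.525 to 0.984) for Xist cells and 11.3 (7.48 to 17.5) for Y cells. The last value rests partly on 1 cell with 48 of the 91 Tnf UMIs of those 89 monocytes. Without the top cell of each library it was 5.75 (3.53 to 9.50), and the Xist cell ratio was 0.926 (0.654 to 1.34). The pooled log2 ratio of phagocytes without their top cells was 0.41, and phagocytes free of T and NK marker UMIs had a ratio of 1.49 (1.30 to 1.72). Whether the sexes differ was not tested.

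Tnf did not follow the interferon-gene cluster in the way Tnfsf10 did, and the libraries differed in this. In the library labelled knockout Tnf was at 29.998 CPM in the cluster (105 UMIs) and 36.9 CPM in the other phagocytes. The 28 control cells of the cluster had 119 CPM (23 UMIs), against 23.6 CPM in the other control phagocytes. Only 32.1% of those 28 cells held a Tnf UMI, and the level without their top cell was not computed. Isg15 likewise was at 485 CPM in Tnf-positive and 754 CPM in Tnf-negative phagocytes of the library labelled knockout, but at 121 and 64.4 CPM among control phagocytes. Tnfaip3, an inhibitor of NF-kB that TNF signalling induces, was higher in Tnf-positive phagocytes of both libraries, with 61.0 against 31.2 CPM among control cells and 62.4 against 42.8 CPM in the other library. Of the 179 Tnfsf10-positive phagocytes of the library labelled knockout, 39 also held Tnf, where the product of the separate shares gives 31.5.

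T cells as a whole, NK cells and B cells held less Tnf than phagocytes. T cells had 11.8 CPM (46 UMIs) and 21.3 CPM (59 UMIs), a ratio of 1.81 (1.21 to 2.72), which was 1.53 (0.989 to 2.37) without the top cell of each library. The ratio was 2.62 (1.28 to 6.05) in Xist cells, from 9 and 53 UMIs, and 0.630 (0.0724 to 2.53) in Y cells, from 25 and 2 UMIs. Regulatory T cells had 10.6 CPM (5 UMIs) and 47.8 CPM (21 UMIs), a ratio of 4.53 (1.66 to 15.4). Of those 21 UMIs 12 came from 1 cell, and without the top cells the ratio was 2.43 (0.678 to 10.8) and the log2 ratio 0.93, under 2-fold on the CPM + 5 scale. Markers of myeloid cells also differed in these gates. In T cells the 8 monocyte markers summed to 588 and 1044 CPM and the 8 macrophage markers to 33.9 and 62.2 CPM, with all 8 of each list seen in both libraries. In regulatory T cells the sums were 701 and 1422 CPM (8 and 7 markers seen, Vcan at 0 in the library labelled knockout) and 31.7 and 75.1 CPM (6 and 8 seen, Mrc1 and Trem2 at 0 in the control library). Their part in the Tnf values was not tested. NK cells had 2 and 5 UMIs, and B cells 1.80 and 3.65 CPM. Deep melanoma cells had 15 and 6 UMIs, of which 1 control cell held 13.

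Tnfrsf1a (ENSMUSG00000030341, chromosome 6, 125349362 to 125362484, plus strand), the TNF receptor with a death domain, was seen in myeloid cells and melanoma cells alike. Monocytes had 189 CPM (177 to 203) and 168 CPM (158 to 177), macrophages 125 and 128 CPM, and type 2 conventional dendritic cells 97.1 and 92.2 CPM. Deep melanoma cells followed with 62.4 CPM (57.0 to 68.2, 490 UMIs) and 69.1 CPM (63.8 to 74.8, 622 UMIs), and 94.2% and 89.9% of them held a UMI. Counting intervals of both libraries separated each step of the order monocyte, macrophage, type 2 dendritic cell, melanoma cell, type 1 dendritic cell. T cells had 24.6 and 27.5 CPM, migratory dendritic cells 25.6 and 23.4 CPM, and B cells 1.80 and 2.43 CPM.

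Between the libraries Tnfrsf1a was flat in phagocytes, with 146 CPM (1977 UMIs) and 142 CPM (3094 UMIs), a ratio of 0.970 (0.916 to 1.03). The melanoma ratio was 1.11 (0.983 to 1.25). NK cells had 47.5 CPM (24 UMIs) and 20.4 CPM (11 UMIs), a ratio of 0.429 (0.190 to 0.909), and a log2 ratio of -1.05. Without the top cell of each library the ratio was 0.155 in Xist cells (7 and 4 UMIs) and 2.08 in Y cells (5 and 2 UMIs).

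Tnfrsf1b (ENSMUSG00000028599, chromosome 4, 145213463 to 145246870, minus strand), the TNF receptor without a death domain, was an immune-cell transcript. Control neutrophils had 267 CPM, monocytes 237 CPM (223 to 252) and 194 CPM (184 to 205), and regulatory T cells 239 CPM (197 to 287) and 191 CPM (152 to 237). Within T cells the regulatory subset stood above CD4 T cells, at 87.4 and 61.2 CPM, and CD8 T cells, at 50.9 and 65.6 CPM, without overlap of intervals. Macrophages had 95.3 and 87.6 CPM, below monocytes. Deep melanoma cells had 8 and 3 UMIs, or 1.02 and 0.334 CPM, the lowest of all classes by mean level.

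Phagocytes had 149 CPM (2018 UMIs) and 129 CPM (2815 UMIs) of Tnfrsf1b, a ratio of 0.864 (0.816 to 0.916) and a log2 ratio of -0.20. Monocytes and intermediate cells had ratios of 0.819 (0.756 to 0.888) and 0.812 (0.700 to 0.945). The phagocyte ratio was 0.716 in Xist cells and 0.864 in Y cells. Monocytes and intermediate cells differed in this. The monocyte ratio was 0.550 (0.486 to 0.624) in Xist cells, from 318 and 175 CPM, and 1.52 (1.26 to 1.82) in Y cells, from 203 and 309 CPM. Intermediate cells had 0.631 (0.483 to 0.835) in Xist cells and 1.49 (0.960 to 2.24) in Y cells. Neutrophil markers, 8 in the list, summed to 107 and 59.9 CPM in phagocytes, 133 and 98.3 CPM in monocytes and 79.8 and 54.7 CPM in intermediate cells, with all 8 seen except Mmp9 in intermediate cells of the library labelled knockout. Their part in the Tnfrsf1b values was not tested. By cluster, with all kept cells of each, the ratio was 0.801 (0.712 to 0.901) in 1 monocyte cluster. In every other monocyte or macrophage cluster its interval included 1. The numbers of cells also differed. A monocyte cluster at 409 and 443 CPM held 369 and 283 cells, and the interferon-gene cluster, at 139 and 142 CPM, held 29 and 501. The part of this mix in the pooled ratios was not tested.

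Past 2-fold on the log2 scale of CPM + 5, phagocytes had 1 of the 7 members higher, Tnfsf10, where 0.912% of the 11845 genes of at least 20 UMIs were higher, and 0 of 7 lower, where 0.0929% were. In monocytes it was 1 of 5 measured members, Tnfsf10, against 1.97% of genes, and in intermediate cells 1 of 5, Tnfsf10, against 2.17%. Macrophages had 0 of 5 against 0.454%. Their Tnfsf10 log2 ratio of 0.80 was 1.35 with a pseudocount of 1 CPM, 1.13 with a mitochondrial limit of 5% and 1.29 as a mean over cells. It was 0.30 in Y cells (11 and 13 UMIs), 0.35 without the interferon-gene cluster, 0.64 after thinning and 0.66 without T or NK marker UMIs. T cells had 0 of 7 higher against 1.42% and 0 of 7 lower against 0.157%. Regulatory T cells had 1 of 4, Tnf, against 3.36%, a count that is 0 without the top cell of each library, and NK cells 1 of 4 lower, Tnfrsf1a, against 3.54%. Deep melanoma cells had 0 of 3 higher against 0.0176% and 0 of 3 lower against 0.0614%.

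**Figure D4:**
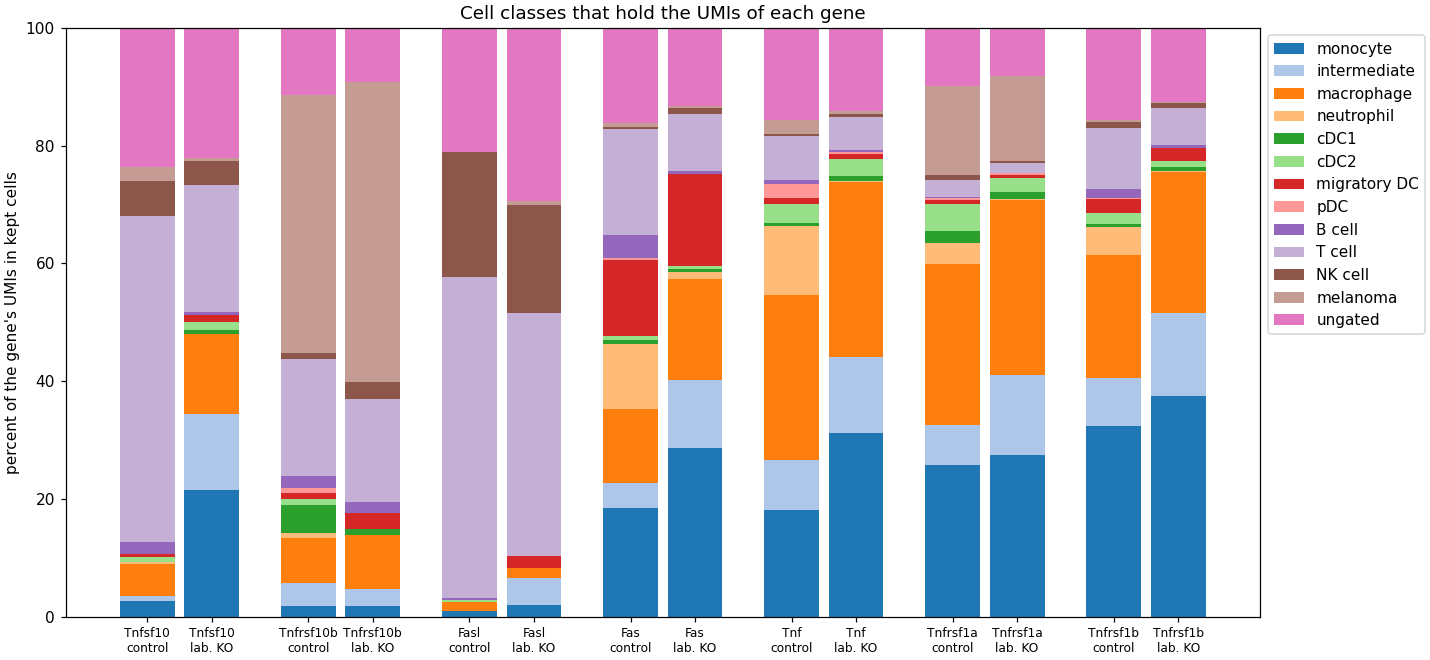
Share of each gene's UMIs (vertical axis, percent) held by each cell class (colors) in kept cells of the control library and the library labelled knockout (lab. KO), as stacked bars. Phagocytes hold 8.93% and 48.0% of the Tnfsf10 UMIs, and melanoma cells 43.8% and 50.9% of the Tnfrsf10b UMIs.

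The wider pathway was covered by 83 further genes, from TRAIL decoy receptors and caspases to other TNF superfamily ligands and receptors. In phagocytes 69 were measured, 49 had a log2 ratio above 0, and their median was 0.15 beside -0.02 for all genes tested, of which 44.8% were above 0. Past 2-fold higher were 2, Daxx and Tnfrsf4, where 0.912% of all genes tested were, and past 2-fold lower 0, where 0.0929% were. Daxx, which encodes a protein that binds the Fas death domain and is also interferon-induced, had 38.7 and 90.0 CPM, a ratio of 2.32 (2.11 to 2.57), and 39.5 and 91.7 CPM in phagocytes without T or NK marker UMIs. Outside the interferon-gene cluster it had 36.7 and 57.0 CPM, a ratio of 1.55 (1.39 to 1.73), under 2-fold. Tnfrsf4, which encodes the T cell costimulatory receptor OX40, had 1.33 and 11.6 CPM, but 0.665 and 1.13 CPM (8 and 20 UMIs) in the cells without those markers. Most of its difference thus lay in cells that also held T or NK marker UMIs. In the cells without those markers the ratio of Ltb, another TNF superfamily ligand gene, was 0.923 (0.618 to 1.39). Those of Bcl2l1, Bcl2a1b and Bcl2a1d were 1.40, 1.41 and 1.81. The count above 0 and the median of the pathway genes were not repeated in these cells, so the part of T cell RNA in them was not tested.

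By role, the adaptors and initiator caspase complex had 7 of 8 genes above 0 in phagocytes with a median of 0.14, and the 12 TNF-induced NF-kB genes had 9 above 0 with a median of 0.24. The mitochondrial arm had 4 of 7 above 0 with a median of 0.02, and the inhibitors of apoptosis 5 of 9 with a median of 0.02. In monocytes 6 of 66 measured pathway genes were past 2-fold higher, where 1.97% of all genes tested were, and 0 lower, where 0.196% were. They were Daxx (52.4 and 143 CPM), the survival genes Bcl2l1 (31.2 and 70.8 CPM), Bcl2a1b (153 and 380 CPM) and Bcl2a1d (58.4 and 159 CPM), and Tnfsf8 and Tnfrsf4. Bcl2a1b and Bcl2a1d are near-identical copies, so how their reads were divided is uncertain. In T cells 0 of 63 measured pathway genes were past 2-fold in either direction, where 1.42% of all genes tested were higher and 0.157% lower. Deep melanoma cells had 0 of 54 in either direction, where 0.0176% were higher and 0.0614% lower. CD8 T cells had 1 of 59 higher, where 1.07% of all genes tested were, and 2 lower, where 0.496% were. The higher one was the costimulatory receptor gene Tnfrsf9, with 83.9 and 202 CPM, a ratio of 2.41 (1.97 to 2.95). The lower ones in CD8 T cells were Tnfsf11 (28 and 6 UMIs) and Cd70 (39 and 9 UMIs). Both are under the limit of 50 UMIs for naming and were named after their values were seen. NK cells had 3 of 46 higher, where 1.82% of all genes tested were, of which Tnfrsf9 had 105 and 265 CPM. CD4 T cells, only 98 in the library labelled knockout, had 4 of 42 higher, where 1.86% of all genes tested were. They were Tnfrsf9 at 49.97 and 224 CPM, Tnfrsf4 at 149.9 and 408 CPM, and Bcl2a1b and Bcl2a1d.

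Across 27 sums of a class in a library (14 classes), the genes whose levels were most like each member were found by Pearson correlation of log2(CPM + 5) over 11197 genes. The points share libraries and depth, so r is a description. Tnfsf10 was most like Il2rb (r = 0.937), Zap70 (0.928) and Tox (0.928), Fasl like Gm37387 (0.956), Samd3 (0.953) and Klrc1 (0.952), and Fas like Gnai3 (0.900), Gadd45b (0.850) and Stx11 (0.836). Tnf was most like Vsir (0.826), Prdx5 (0.824) and Entpd1 (0.822), Tnfrsf1a like Arl11 (0.875), Pgd (0.859) and Znhit1 (0.857), and Tnfrsf1b like Rap1b (0.929), Cmip (0.910) and Cap1 (0.878). Tnfrsf10b was most like Armcx4 (0.848), Nlk (0.802) and 2310033P09Rik (0.784).

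Tnf and its receptors were often seen in 1 cell. Of 202 and 454 Tnf-positive phagocytes, 71.3% and 69.8% held a Tnfrsf1a UMI, against 62.9% and 53.9% of Tnf-negative ones, and 63.9% and 64.1% held Tnfrsf1b, against 59.2% and 50.1%. Both receptors were seen together in 693 and 883 phagocytes. Of 133 and 77 Fasl-positive T cells, 12 and 7 held Fas, where the product of the separate shares gives 8.51 and 5.19. Tnfsf10 and Fasl shared 24 and 23 T cells, where it gives 18.6 and 11.3. Deeper cells hold more UMIs of every gene, so such overlaps also carry depth.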

How the data were processed

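Live CD45+ cells of B16F10 tumors were profiled with 10x Chromium 3' v3 chemistry. The authors deposited UMI counts per gene and barcode, made with Cell Ranger 3.0.1 on mm10, per the submitters' processing notes; counting of antisense and shared reads is not given in the sources used here. Barcodes needed 200 genes or more and a mitochondrial share of 10% or less. Scrublet, run per library, removed the highest-scoring 0.8% per 1000 barcodes, 402 and 263 barcodes. The median barcode held 2600 and 4455 UMIs.

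Each cell took the class with the largest share of its markers, given at least 2 of them and a margin of 15 percentage points, and 16.0% and 15.7% stayed ungated. Names rest on transcripts alone. Leiden clusters (scanpy 1.11.5, leidenalg 0.10.2, members left out) served as a second classification. UMIs were summed per class and library, CPM got exact Poisson, shares exact Clopper-Pearson and ratios exact conditional 95% intervals, all for counting error only. For a count of 0 the limit is 3 UMIs. Log2 ratios used a pseudocount of 5 CPM and genes of at least 20 UMIs over both libraries. Pathway genes past 2-fold with at least 50 UMIs were named, at most 10 per class. Tnfsf11 and Cd70 in CD8 T cells were named outside this rule, as were Ltb, Bcl2l1, Bcl2a1b and Bcl2a1d in phagocytes. The 3 genes most like each member were taken from those of at least 200 UMIs. The ratio and interval were tested on simulated data.

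The members and gene lists were chosen with earlier results of these data known. Sex and depth alternatives are in the closing section, and free-RNA and class alternatives are given there for Tnfsf10 in phagocytes. The cluster of interferon genes, the cells without T or NK markers and the depth split of melanoma cells were chosen after seeing the data. Coordinates are from GENCODE M21, which holds 98.7% of the gene IDs.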

Additional observations from a re-analysis of the deposited data

Results flagged for a closer look

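In monocytes, the ratios of Tnf and Tnfrsf1b had opposite directions in Xist cells and Y cells, and the difference was not tested. Tnf had a log2 ratio of -0.44 in Xist cells and 3.12 in Y cells, which became -0.10 and 2.17 without the top cell of each library. Tnfrsf1b, the TNF receptor without a death domain, had -0.84 in Xist cells and 0.59 in Y cells. Of the control monocytes 187 were Xist cells and 349 Y cells, against 955 and 89 of the library labelled knockout.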

How the results depend on the processing

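No paired analysis was possible because each group is 1 library and the groups share no replicate pairs. With phagocytes as the class, the log2 ratio of Tnfsf10 (1.35) was 2.15 with a pseudocount of 1 CPM, 1.71 with a mitochondrial limit of 5%, 1.76 as a mean over cells, 0.32 in Y cells and 0.42 without the interferon-gene cluster, and above 0 in 14 of 14 alternatives. This log2 ratio was 1.43 with 5% free RNA taken away, 1.43 with classes from clusters and 1.35 with 1 more marker in the gate. For Tnf (0.44) it was -0.0234 in Xist cells, 0.95 in Y cells and 0.87 after thinning. Xist cells gave -0.14 for Fas (0.09), -0.14 for Tnfrsf1a (-0.04) and -0.47 for Tnfrsf1b (-0.20). Tnfrsf10b (-0.09) was -0.27 with a pseudocount of 1 CPM. The Fasl ratio in NK cells (-0.54) was -1.16 in Xist cells and 0.73 in Y cells. In monocytes Tnfsf10 (1.75) was -0.64 in Y cells, from 6 and 0 UMIs. The pathway median in phagocytes (0.15) was 0.18 and 0.19 under its alternatives. A pseudocount of 1 CPM put 6 pathway genes past 2-fold higher in phagocytes in place of 2, and 11 in place of 6 in monocytes. The share of all genes past 2-fold was not counted at that pseudocount, so whether these counts exceed it is not known. Classes from clusters or with 1 more marker were not run for macrophages and monocytes apart. The cause of these changes was not tested. Depth limits Tnfrsf10b, Fasl outside lymphocytes and Fas in melanoma cells, which rest on few UMIs.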
